A study of Homo sapiens with 24 samples.

Results

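The comparison set cells transfected with an oligonucleotide directed at miR-20a (si-miR-20a) against cells transfected with a non-targeting oligonucleotide (control), 60 and 120 min after EGF was added. It used 8 of the 24 arrays of the series, chosen by their labels: 4 si-miR-20a arrays and 4 control arrays, with 2 replicates of each at 60 min and 2 at 120 min. All cells were MCF10A, an established line of non-tumorigenic human breast epithelial cells, and Oligofectamine delivered the oligonucleotides, which came from Dharmacon. The growth medium held insulin, cholera toxin, hydrocortisone, horse serum and EGF, and all 8 arrays came from EGF-stimulated cells, so an unstimulated culture at the same times was not part of the comparison. The arrays, Affymetrix Human Gene 1.0 ST, measure transcripts of genes and not mature microRNAs, so the loss of miR-20a itself could not be checked. The other 16 arrays of the series are the same transfections at 0 and 30 min and, at all times, cells that received an oligonucleotide against miR-671-5p (si-miR-671). The labels call the replicates biological, and nothing says that they came from separate cultures, so the p-values measure the spread between these samples, which may be technical.

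MicroRNAs pair through their seed, bases 2 to 8 from the 5′ end, with sites that lie mostly in the 3′ untranslated regions of mRNAs, and this pairing lowers the mRNA or its translation. MiR-20a is made from the MIR17HG transcript together with miR-17 and belongs to the miR-17 family, which is known for targets in the cell cycle, in TGF-beta signalling and in autophagy. Inhibition of a microRNA is generally read through its targets, whose mRNAs are then less repressed. The mature sequences are shown because family members that share the seed can share targets, whereas the microRNA addressed by the other oligonucleotide of the series has another seed. They come from RefSeq, build GRCh38.p14, and capitals mark the seed. Of 2370 mature human microRNAs in that table, 8 carry the seed of miR-20a-5p, and 4 of them are printed with miR-671-5p.
hsa-miR-20a-5p: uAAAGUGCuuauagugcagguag
hsa-miR-17-5p: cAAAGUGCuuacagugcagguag
hsa-miR-106b-5p: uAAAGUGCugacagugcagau
hsa-miR-93-5p: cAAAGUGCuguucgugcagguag
hsa-miR-671-5p: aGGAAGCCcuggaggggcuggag
The first 2 lie on chromosome 13 of GRCh38.p14, miR-20a-5p at chr13:91351072-91351094 and miR-17-5p at chr13:91350618-91350640, both on the plus strand. The other 3 lie on chromosome 7.

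The values are the deposited log2 levels, 1 per probe set. Marker lists of the cell types a breast culture could hold were set against each other between the groups only, since levels of different probe sets cannot be compared, and so they do not by themselves establish the cell type. The mean log2 level of 13 basal epithelial markers ran from 10.89 to 10.95 in si-miR-20a arrays and from 10.9 to 10.96 in control arrays. The corresponding ranges were 7.44 to 7.52 and 7.43 to 7.56 for 20 luminal markers, and 7.01 to 7.15 and 7.12 to 7.22 for 21 mesenchymal markers. For 15 blood and endothelial markers they were 6.25 to 6.48 in si-miR-20a arrays and 6.24 to 6.43 in control arrays. MIR17HG, the primary transcript of miR-20a, differed by -0.08 ± 0.10 on the log2 scale between si-miR-20a and control (SE, n = 4 each, limma adjusted p = 0.708).

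Genes were compared with limma, with time as a block, over 19460 probe sets that name 1 gene each, and were called at a Benjamini-Hochberg adjusted p under 0.05. Between si-miR-20a and control cells 1081 probe sets, 5.55% of those tested, passed: 533 were higher (2.74%) and 548 lower (2.82%) in si-miR-20a cells. The called differences had a median size of 0.52 on the log2 scale, and 387 of them reached 1.5-fold, 170 higher and 217 lower. The median difference over all probe sets was 0.01. With 1 probe set per gene, 1036 genes were called, 514 higher and 522 lower, and in all 1036 the 2 si-miR-20a arrays lay on one side of the 2 control arrays both at 60 and at 120 min. That separation alone, without the test, held for 11.9% of all probe sets upwards and 10.3% downwards.

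The number of calls depended on single arrays. Without control at 60 min replicate 1 it was 264, without control at 60 min replicate 2 it was 336, and without si-miR-20a at 60 min replicate 2 it was 421. Without control at 120 min replicate 1 or 2 it was 533 and 526, and without si-miR-20a at 120 min replicate 1 or 2 it was 551 and 686. The array that stood farthest from its fitted values was si-miR-20a at 60 min replicate 1, with a residual SD over probe sets of 0.24, against 0.13 to 0.20 in the other 7. Without it 870 probe sets were called, 332 higher and 538 lower. Of the 107 called genes chosen for naming, 55 kept their call whichever array was left out and 0 changed direction. The groups of every called gene did not overlap within either time, so leaving out 1 array could not have reversed a direction.

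The genes with the largest rises in si-miR-20a cells encode a structural protein of the cornified envelope, a serpin and several enzymes. SCEL encodes sciellin, a precursor of the cornified envelope of keratinocytes. Its log2 level was 7.41 and 7.03 at 60 min and 6.93 and 6.79 at 120 min in si-miR-20a cells, against 4.87 and 5.23 at 60 min and 4.90 and 4.91 at 120 min in control cells. The groups lay far apart at both times, and SCEL was 4.17-fold higher (log2 difference 2.06 ± 0.12 SE, limma adjusted p = 0.000421). Its control values lie near the lower quartile of the arrays, 4.95 to 4.97, with no detection call, so the size of this rise and its rank are uncertain. AOX1, which encodes aldehyde oxidase, had log2 levels of 7.62, 7.30, 7.54 and 7.72 in si-miR-20a cells and of 5.67, 5.76, 5.94 and 5.60 in control cells (60 min replicates 1 and 2, then 120 min replicates 1 and 2, the order used throughout). The arrays of each group lay close together, and AOX1 was 3.49-fold higher (1.81 ± 0.11, adjusted p = 0.000512). SERPINB7, a clade B serpin found in epidermis, had 8.35, 8.36, 8.49 and 8.56 in si-miR-20a cells and 7.0, 6.85, 7.19 and 6.82 in control cells. It was 2.78-fold higher, with no overlap of the groups. DPYSL3, a cytoskeleton-associated protein of the collapsin response mediator family, had 6.61, 6.56, 6.65 and 6.65 in si-miR-20a cells and 5.35, 5.19, 5.43 and 5.16 in control cells. It was 2.52-fold higher, and the SD of its 4 si-miR-20a arrays was only 0.04.

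The other rises among the 12 largest were between 2.23-fold and 2.36-fold. They were the lipase-related gene PNLIPRP3, SREK1IP1, whose product binds a splicing regulator, the phosphodiesterase gene SMPDL3A, the long non-coding RNA FER1L6-AS1, the pregnancy-specific glycoprotein PSG3, the oxidised LDL receptor OLR1, the orphan receptor GPRC5A and the guanylate-binding protein GBP6. FER1L6-AS1 was the least secure: its log2 levels were 5.49, 4.59, 5.11 and 5.35 in si-miR-20a cells and 3.17, 3.59, 4.79 and 4.18 in control cells. Its groups overlapped across the times and its call was lost in 6 of the 8 fits that left out 1 array. The call of PSG3 was lost in 5 of them, and its probes may also bind transcripts of its close relatives in the PSG family.

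**Figure D1:**
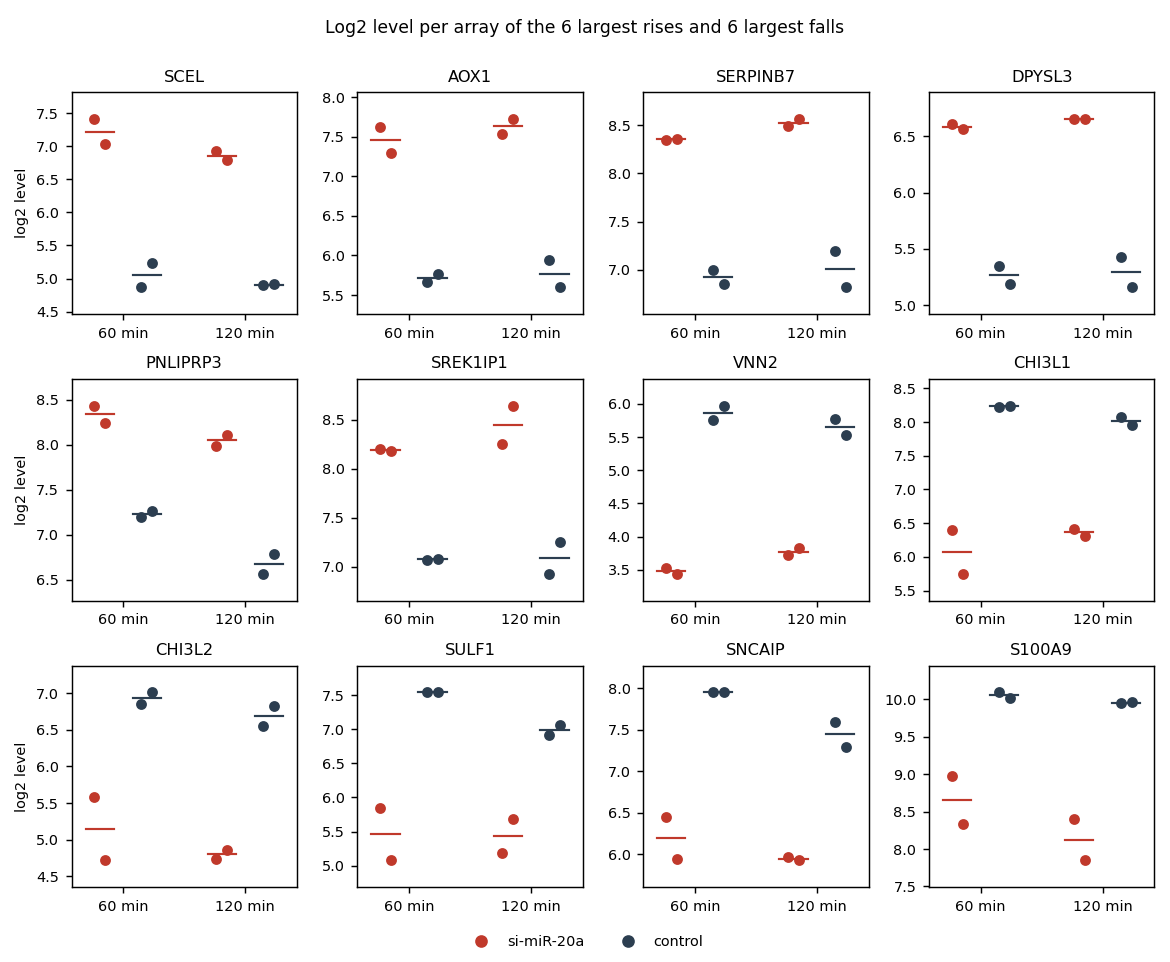
Log2 level of each array (points, mean of 2 as a line) for the 6 largest rises and the 6 largest falls, with 60 min on the left and 120 min on the right of each panel and si-miR-20a (red) left of control (dark). In every panel the si-miR-20a points and the control points do not overlap at either time, for example SCEL at 6.79 to 7.41 against 4.87 to 5.23.

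The largest falls were led by secreted defence proteins. Of 26 measured genes for calprotectin, acute phase and secreted defence proteins, 17 fell and 1 rose in si-miR-20a cells, beside 2.82% and 2.74% of all probe sets. Their median difference was -0.78 on the log2 scale beside 0.01 for all genes. The number that fell stayed between 14 and 16 when 1 array was left out. This list and those below were chosen with earlier results of these data known. The shares of all probe sets given beside them are therefore descriptive and test no enrichment. VNN2, which encodes a vanin, an enzyme family that cleaves pantetheine, had log2 levels of 3.52, 3.44, 3.72 and 3.82 in si-miR-20a cells and 5.75, 5.97, 5.77 and 5.53 in control cells. It fell 4.38-fold (-2.13 ± 0.13, limma adjusted p = 0.000421), with no overlap of the groups. The si-miR-20a values of VNN2 lie under the lower quartile of the arrays, 4.95 to 4.97, and the values used here carry no detection call, so the size of this fall and its rank are uncertain. CHI3L1, a secreted chitinase-like protein without enzyme activity, had 6.40, 5.75, 6.42 and 6.31 in si-miR-20a cells and 8.23, 8.24, 8.07 and 7.95 in control cells. Its lowest value came from si-miR-20a at 60 min replicate 2, and all 4 si-miR-20a arrays lay below all 4 control arrays (-1.90 ± 0.16, adjusted p = 0.00121). Its relative CHI3L2 fell 3.57-fold, with 5.58, 4.72, 4.74 and 4.86 in si-miR-20a cells and 6.85, 7.01, 6.55 and 6.82 in control cells. Most of its si-miR-20a values lie under the lower quartile of the arrays, so the size and rank of this fall are uncertain too.

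S100A8 and S100A9, the subunits of calprotectin, fell together. S100A9 had log2 levels of 8.97, 8.34, 8.40 and 7.85 in si-miR-20a cells and 10.09, 10.02, 9.95 and 9.96 in control cells, so the 4 control arrays were close together and the si-miR-20a arrays spread over more than 1 unit. S100A8 had 10.68, 10.42, 10.41 and 10.11 in si-miR-20a cells and 12, 11.90, 11.85 and 11.87 in control cells. S100A9 fell 3.06-fold (-1.61 ± 0.18, adjusted p = 0.00311) and S100A8 2.83-fold (-1.50 ± 0.10, adjusted p = 0.000618). CFB, factor B of the alternative complement pathway, had 8.69, 8.62, 8.53 and 8.41 in si-miR-20a cells and 10.15, 10.17, 9.81 and 9.83 in control cells. This 2.7-fold fall had the smallest adjusted p of all genes, 0.000338. The siderophore-binding protein LCN2 fell 2.83-fold, with 6.24, 5.83, 6.08 and 5.87 in si-miR-20a cells and 7.62, 7.48, 7.73 and 7.19 in control cells.

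Other members of the defence list that fell, named after their values were seen, were the complement genes C1S (-0.93 ± 0.08), C1R (-0.70 ± 0.08) and C3 (-0.50 ± 0.09). Also lower were lactoferrin, LTF (-1.38 ± 0.16), and the serum amyloids SAA1 (-1.24 ± 0.11) and SAA2 (-1.21 ± 0.10). The serum amyloid pseudogene SAA3P fell too (-1.59 ± 0.19), and probes for these near-identical genes may share signal. S100A7 differed by -0.97 ± 0.25 and did not pass (adjusted p = 0.0599), and SLPI, CP, CAMP, DEFB1, HP, ORM1 and BPIFB1 did not pass either. The single member that rose was the antimicrobial ribonuclease RNASE7 (0.57 ± 0.12), whose call was lost in 7 of the 8 fits without 1 array. In bulk RNA, fewer cells of a type and less RNA per cell cannot be told apart.

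Among the largest falls outside that list were SULF1, PLPP3, SNCAIP and RERG. SULF1, which encodes an endosulfatase that trims heparan sulfate, had log2 levels of 5.84, 5.08, 5.19 and 5.69 in si-miR-20a cells and 7.54, 7.54, 6.91 and 7.06 in control cells (-1.81 ± 0.20, limma adjusted p = 0.00288). PLPP3, a lipid phosphate phosphatase, had 6.81, 6.42, 6.21 and 5.95 in si-miR-20a cells and 8.19, 8.22, 7.55 and 7.48 in control cells. It was lower at 120 than at 60 min in both transfections, and the difference between them was alike at both times, -1.59 at 60 min and -1.43 at 120 min. SNCAIP, which encodes synphilin-1, fell 3.08-fold, and RERG, a small GTPase of the Ras superfamily, fell 2.68-fold.

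Of 32 measured cytokine and chemokine genes, 7 fell and 1 rose, beside 2.82% and 2.74% of all probe sets, with a median difference of -0.20. CXCL1, a neutrophil chemokine, had log2 levels of 9.95, 9.93, 9.21 and 9.26 in si-miR-20a cells and 11.13, 11.07, 10.65 and 10.51 in control cells. It fell 2.39-fold (-1.26 ± 0.08, limma adjusted p = 0.000512). The monocyte chemokine CCL2 had 7.50, 7.16, 6.15 and 6.13 in si-miR-20a cells and 8.53, 8.58, 7.32 and 7.46 in control cells. Both groups were lower at 120 min, so the groups overlapped across the times but not within either time (-1.24 ± 0.09, adjusted p = 0.00099). The growth factors of myeloid cells CSF1 (-0.98 ± 0.12) and CSF3 (-0.77 ± 0.12) fell, as did the cytokines IL6 (-0.75 ± 0.08), IL32 (-0.70 ± 0.10) and TNFSF10 (-0.47 ± 0.11). The member that rose was IL1RN, the interleukin 1 receptor antagonist, with 5.80, 5.56, 6.12 and 6.41 in si-miR-20a cells and 4.94, 4.60, 5.48 and 5.33 in control cells (0.88 ± 0.12, adjusted p = 0.00618). Other chemokines for neutrophils did not follow CXCL1 past the threshold: CXCL2 differed by -0.65 ± 0.20, CXCL3 by -0.45 ± 0.12 and CXCL8 by 0.35 ± 0.18.

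NF-kappaB is a family of transcription factors that drives many cytokine and adhesion genes and its own inhibitors. Of 23 measured genes for NF-kappaB subunits, their inhibitors and standard targets, 7 fell and 0 rose, beside 2.82% and 2.74% of all probe sets. Their median was -0.19. The number that fell ranged from 3 to 7 when 1 array was left out. The adhesion receptor ICAM1 had log2 levels of 6.77, 6.20, 6.49 and 6.27 in si-miR-20a cells and 7.78, 7.85, 7.70 and 7.25 in control cells, a 2.31-fold fall (-1.21 ± 0.15, limma adjusted p = 0.00564). The RNase gene ZC3H12A (-0.80 ± 0.09), TNFAIP2 (-0.79 ± 0.12), the mitochondrial superoxide dismutase SOD2 (-0.69 ± 0.09), NFKBIZ (-0.56 ± 0.10), TNIP3 (-0.56 ± 0.12) and TNIP1 (-0.48 ± 0.08) were also lower. The call of TNFAIP2 was lost without 1 array, control at 60 min replicate 1 (adjusted p = 0.0503). The subunits themselves did not pass, with RELA at -0.14 ± 0.11, NFKB1 at 0.00 ± 0.08, RELB at -0.23 ± 0.10 and NFKB2 at 0.10 ± 0.08. The feedback inhibitors NFKBIA (-0.39 ± 0.11) and TNFAIP3 (0.10 ± 0.12) did not pass either.

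The promoters of these genes, 250 bases before to 50 after the start in RefSeq, build GRCh38.p14, were searched on both strands for a form of the kappaB motif that reads 3 G, any 2 bases, 3 T and 2 C. Of 35116 windows 671 held it (1.91%). Among genes that fell 19 of 425 windows held it (4.47%), and among genes that rose 7 of 404 (1.73%). In the cytokine and chemokine list 8 of 24 windows held it, including those of CXCL1, IL32 and IL6, which fell, and those of CXCL2, CXCL3, CXCL5, CXCL6 and CCL20, which did not pass. In the NF-kappaB list 6 of 21 windows held it, that of NFKBIZ, which fell, and those of CYLD, NFKB1, NFKBIA, REL and TNFAIP3, which did not pass. Among the members of that list that fell, 1 of 7 windows held it. In the defence list 0 of 16 did. The stretches of the 4 members of these lists that fell and held the motif are printed with it in capitals, all on the plus strand. A match describes the letters of the window and is neither a binding site nor a cause.
CXCL1, chr4:73869294-73869343: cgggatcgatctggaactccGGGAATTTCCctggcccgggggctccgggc
IL6, chr7:22727107-22727156: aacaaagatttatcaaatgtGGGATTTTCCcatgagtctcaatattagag
IL32, chr16:3065284-3065333: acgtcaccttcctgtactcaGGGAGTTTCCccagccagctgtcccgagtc
NFKBIZ, chr3:101827747-101827796: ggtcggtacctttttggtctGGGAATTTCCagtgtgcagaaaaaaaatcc

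The interferon list did not move as one. Of 34 measured interferon-stimulated genes 4 rose and 2 fell, beside 2.74% and 2.82% of all probe sets, with a median of 0.07. IFIT1, which binds foreign RNA, had log2 levels of 7.08, 7.24, 6.80 and 6.92 in si-miR-20a cells and 6.57, 6.29, 5.92 and 6.01 in control cells (0.81 ± 0.10, limma adjusted p = 0.00417). SAMD9, an antiviral factor, rose by 0.68 ± 0.09 and IRF9, the DNA-binding subunit of the interferon-activated complex, by 0.44 ± 0.09. The call of IRF9 was lost in each of the 8 fits without 1 array, and that of SAMD9 in none. GBP2, a guanylate-binding protein, fell by 0.84 on the log2 scale, but a second probe set for the gene did not pass (-0.32 ± 0.11, adjusted p = 0.13). ISG15 (0.34 ± 0.20), MX1 (0.18 ± 0.20) and OAS1 (-0.03 ± 0.09) did not pass.

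Cornified envelope and keratinisation genes gave 4 rises and 1 fall among 35 measured, beside 2.74% and 2.82% of all probe sets. Their median was 0.03. Beside SCEL the rises were the envelope precursor SPRR1B, the protease KLK5 and the cross-linking enzyme TGM1. SPRR1B had log2 levels of 9.29, 8.88, 9.17 and 9.04 in si-miR-20a cells and 8.07, 7.96, 8.47 and 8.16 in control cells (0.93 ± 0.13, limma adjusted p = 0.00684). KLK5 rose by 0.64 ± 0.09 and TGM1 by 0.60 ± 0.10. The related SPRR2A fell by 0.78, a call lost in 7 of 8 fits without 1 array. Involucrin, IVL (0.17 ± 0.14), loricrin, LORICRIN (0.03 ± 0.08), filaggrin, FLG (0.00 ± 0.14), and the suprabasal keratins KRT1 (-0.08 ± 0.14) and KRT10 (-0.05 ± 0.07) did not pass. Of 11 clade B serpins, SERPINB7 and SERPINB13 rose. SERPINB13 had 10.31, 10.21, 9.83 and 10.32 in si-miR-20a cells and 9.18, 9.21, 8.98 and 9.0 in control cells (1.08 ± 0.11, adjusted p = 0.00249). SERPINB5 differed by 0.31 ± 0.09 and SERPINB3 by 0.10 ± 0.10, neither past the threshold.

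**Figure D2:**
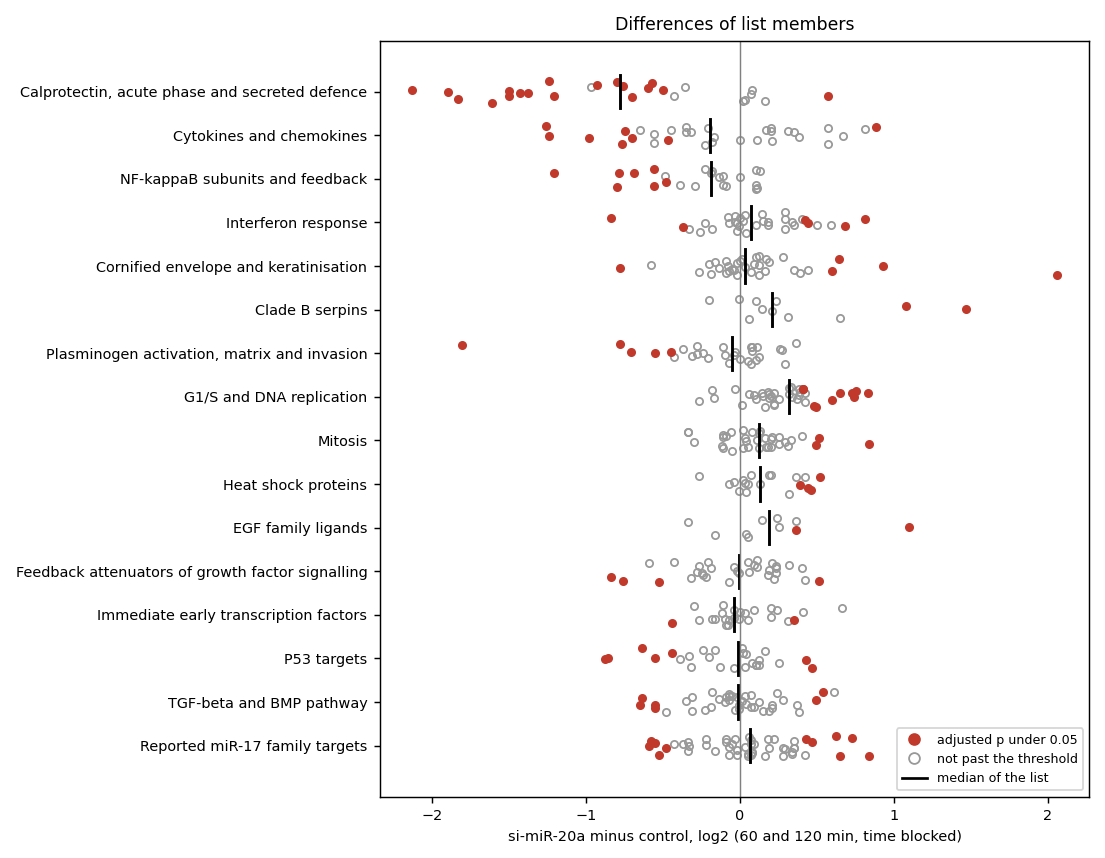
Difference of each measured gene, si-miR-20a minus control on the log2 scale over 60 and 120 min, for 16 gene lists, 1 row each. Filled points passed an adjusted p of 0.05, open points did not, and the bar is the list's median. The defence list lies farthest left, with a median of -0.78, and the G1/S and DNA replication list farthest right, with 0.32.

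DNA replication genes were among the rises. Of 39 measured genes for the G1/S transition and DNA replication 10 rose and 0 fell, beside 2.74% and 2.82% of all probe sets, the median was 0.32 and 35 estimates lay above 0. The number that rose ranged from 5 to 9 when 1 array was left out. CCNE2, a cyclin that activates CDK2 at the G1/S transition, had log2 levels of 7.36, 6.97, 7.02 and 7.31 in si-miR-20a cells and 6.51, 6.12, 6.34 and 6.35 in control cells (0.83 ± 0.13, limma adjusted p = 0.011). RFC3, a subunit of the loader of the PCNA clamp, had 8.03, 8.03, 8.09 and 8.27 in si-miR-20a cells and 7.34, 7.32, 7.24 and 7.55 in control cells (0.74 ± 0.09, adjusted p = 0.00564). For both genes the groups lay apart over all 8 arrays. The checkpoint adaptor CLSPN rose by 0.75 ± 0.12, although its second probe set did not pass (0.34 ± 0.21, adjusted p = 0.387). The polymerase epsilon subunit POLE2 rose by 0.73 ± 0.13, the origin licensing factor CDC6 by 0.65 ± 0.09 and the replication factor MCM10 by 0.60 ± 0.08. The ribonucleotide reductase subunit RRM2 and the helicase subunits MCM3, MCM4 and MCM5 rose by 0.41 to 0.49. Not all of the programme passed: CCNE1 differed by -0.03 ± 0.10, PCNA by 0.10 ± 0.11, E2F1 by 0.34 ± 0.18 and CDT1 by -0.27 ± 0.15.

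Mitosis genes gave 3 rises and 0 falls among 35 measured, beside 2.74% and 2.82% of all probe sets, with a median of 0.12. The chromokinesin KIF4A had log2 levels of 7.06, 6.73, 6.73 and 6.84 in si-miR-20a cells and 6.09, 6.12, 6.03 and 5.78 in control cells (0.84 ± 0.10, limma adjusted p = 0.00504). The checkpoint kinase BUB1B rose by 0.51 ± 0.10 and the cytokinesis scaffold ANLN by 0.49 ± 0.09, calls lost in 5 and 6 of the 8 fits without 1 array. MKI67 (0.13 ± 0.09), CCNB1 (0.08 ± 0.10) and TOP2A (-0.12 ± 0.08) did not pass.

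Of 10 measured ligands of the EGF receptor family, 2 rose, beside 2.74% of all probe sets. NRG1, a ligand of ERBB3 and ERBB4, had log2 levels of 8.11, 8.02, 9.0 and 9.32 in si-miR-20a cells and 6.79, 6.80, 8.15 and 8.27 in control cells. It was higher at 120 than at 60 min in both transfections and higher in si-miR-20a cells at each time (1.10 ± 0.11, limma adjusted p = 0.00195), and a second probe set gave 1.51 ± 0.12. HBEGF had 10.75, 10.73, 10.43 and 10.51 in si-miR-20a cells and 10.44, 10.36, 10.04 and 10.15 in control cells. This rise of 0.36 ± 0.07 (adjusted p = 0.032) was lost in each of the 8 fits without 1 array. Of the 4 receptors 0 passed, EGFR at -0.25 ± 0.08 being the farthest from 0 downwards.

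Of 33 feedback attenuators of growth factor signalling 3 fell and 1 rose, beside 2.82% and 2.74% of all probe sets. LRIG1, which promotes degradation of EGF receptors, had log2 levels of 8.06, 7.93, 7.60 and 7.73 in si-miR-20a cells and 8.67, 8.75, 8.68 and 8.6 in control cells (-0.84 ± 0.09, limma adjusted p = 0.00288). Its relative LRIG3 fell (-0.76 ± 0.10), and so did the Sprouty inhibitor SPRY1 (-0.53 ± 0.12), whose call was lost in 7 of 8 fits without 1 array. SOCS6, a suppressor of cytokine signalling, rose by 0.51 ± 0.08. ERRFI1, an inhibitor of EGFR, differed by -0.59 ± 0.16 (adjusted p = 0.0709), and the phosphatases DUSP1 (0.40 ± 0.11), DUSP5 (-0.32 ± 0.10) and DUSP6 (0.11 ± 0.08) did not pass. Of 25 immediate early transcription factors only KLF6 rose (0.35 ± 0.08) and only KLF4 fell (-0.44 ± 0.09), and both calls were lost in each of the 8 fits without 1 array. FOS (-0.07 ± 0.11), EGR1 (-0.08 ± 0.14), JUN (0.03 ± 0.09) and MYC (0.09 ± 0.09) did not pass.

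Adhesion and matrix genes called were mostly lower, and of all probe sets 2.82% fell and 2.74% rose. Of 30 measured genes for plasminogen activation, matrix and invasion 5 fell and 0 rose: SULF1, its relative SULF2 (-0.71 ± 0.09), the basement membrane collagen chains COL4A1 (-0.78 ± 0.10) and COL4A2 (-0.45 ± 0.09), and urokinase, PLAU (-0.55 ± 0.12). Of 19 integrins and cadherins 2 fell and 1 rose. CDH11, a mesenchymal cadherin, had log2 levels of 6.09, 5.86, 5.86 and 5.83 in si-miR-20a cells and 7.23, 7.19, 7.28 and 7.25 in control cells. It fell 2.51-fold (-1.33 ± 0.09, limma adjusted p = 0.000512), with an SD of 0.12 in si-miR-20a cells and 0.04 in control cells. E-cadherin, CDH1, had 9.84, 9.72, 9.82 and 9.91 in si-miR-20a cells and 9.29, 9.35, 9.49 and 9.24 in control cells (0.48 ± 0.09, adjusted p = 0.0191), a call lost in 4 of 8 fits without 1 array. The mesenchymal marker list as a whole gave 2 falls, FBLN1 and ACTA2, and 1 rise, DCN, among 21 measured. The calls of ACTA2 and DCN were each lost in 7 of 8 fits without 1 array, and that of FBLN1 in 0. Of 20 luminal markers 2 fell, ELF3 (-0.91) and PRLR (-0.8), and 2 rose, FOXA1 (0.69) and EPCAM (0.55). When 1 array was left out, 0 to 2 of them fell and 0 to 1 rose. Of 13 basal markers 1 rose, CAV1 (0.39), a call lost in all 8 such fits. LOX, a collagen cross-linking enzyme on the hypoxia list, fell by 1.06 on the log2 scale (adjusted p = 0.00379).

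Of 26 p53 target genes 5 fell and 2 rose, CDKN1A (0.43 ± 0.09) and GADD45A (0.47 ± 0.11), beside 2.82% and 2.74% of all probe sets. When 1 array was left out, 2 to 5 fell and 0 to 1 rose. CCNG1, cyclin G1, had log2 levels of 10.29, 10.14, 9.80 and 9.65 in si-miR-20a cells and 10.99, 10.98, 10.69 and 10.75 in control cells (-0.88 ± 0.09, limma adjusted p = 0.00215). SESN1, a stress-induced inhibitor of mTORC1, fell by 0.86 on the log2 scale, with the cytokine GDF15 (-0.64 ± 0.13), SUSD6 (-0.55 ± 0.08) and the death receptor FAS (-0.44 ± 0.10) also lower. Its relative SESN3 was higher, with 9.39, 9.27, 9.05 and 9.23 in si-miR-20a cells and 8.58, 8.51, 7.88 and 8.05 in control cells (0.98 ± 0.11, adjusted p = 0.00314). Of 28 genes repressed by growth factors or restraining PI3K signalling, 4 fell, among them SESN1 and the clock genes NR1D2 (-0.57 ± 0.08) and PER3 (-0.55 ± 0.11), and 2 rose, SESN3 and TXNIP. Of 40 TGF-beta and BMP pathway genes 4 fell, including the co-receptor TGFBR3 (-0.65 ± 0.11) and the signal transducer SMAD1 (-0.55 ± 0.08), and 2 rose, the ligand BMP2 (0.54 ± 0.09) and LTBP1 (0.49 ± 0.10), which binds latent TGF-beta. When 1 array was left out, 1 to 5 of these genes fell and 0 to 2 rose, and LTBP1 lost its call in 7 of 8 fits. In the same fits GADD45A lost its call in all 8, and GDF15 and PER3 in 6 each.

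Stress and metabolic lists had members in both directions, and of all probe sets 2.74% rose and 2.82% fell. SLC7A11, the cystine transporter of system xc-, had log2 levels of 10.27, 10.41, 10.66 and 11.08 in si-miR-20a cells and 9.30, 9.37, 9.64 and 9.59 in control cells (1.13 ± 0.11, limma adjusted p = 0.00215). It was 1 of 4 rises beside 3 falls among 26 NRF2 and redox genes, with AOX1, thioredoxin reductase TXNRD1 (0.49 ± 0.08) and ALDH3A1 (0.38 ± 0.07) higher and AKR1B10, ME1 and AKR1C3 lower by 0.70, 0.43 and 0.37. When 1 array was left out, 2 to 4 of the list rose and 0 to 2 fell, and AKR1B10, ME1 and AKR1C3 lost their calls in 6, 7 and 7 of 8 fits. Among 31 amino acid and unfolded protein stress genes 3 rose and 1, the chaperone CALR (-0.53 ± 0.07), fell. Among 26 cholesterol and fatty acid synthesis genes 3 rose, ACLY, MSMO1 and SCD, by 0.35 to 0.53, and 0 to 2 did when 1 array was left out. Among 19 heat shock genes 4 rose, DNAJB4, CRYAB, HSPH1 and DNAJB1, by 0.39 to 0.52, a number that ranged from 0 to 2 when 1 array was left out.

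The title of the series asks for microRNA targets, and the miR-17 family list bears on that question, although the loss of miR-20a could not be checked. Of 50 measured genes reported as targets of the family, 6 rose and 5 fell in si-miR-20a cells, beside 2.74% and 2.82% of all probe sets, with a median of 0.07 beside 0.01 for all genes. In the fits without 1 array the number that rose ranged from 2 to 4 and the number that fell from 0 to 7. Against control 29 of the 50 estimates lay above 0 and 21 below. Against si-miR-671 42 lay above 0 and 8 below, with a median of 0.11 beside 0.01 for all genes, and 0 passed. Whether the list as a whole differed was not tested. ZNFX1, a helicase-domain protein that senses viral RNA, had log2 levels of 9.20, 9.25, 9.25 and 9.32 in si-miR-20a cells and 8.56, 8.61, 8.68 and 8.56 in control cells. The SD was 0.05 in both groups, and ZNFX1 was 1.57-fold higher (0.65 ± 0.07, limma adjusted p = 0.00354). The ephrin receptor EPHA4 had 6.64, 6.85, 6.69 and 6.81 in si-miR-20a cells and 6.03, 6.09, 6.13 and 5.84 in control cells (0.73 ± 0.10, adjusted p = 0.0062). ZNFX1 and EPHA4 kept their calls in all 8 fits without 1 array.

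The calls of 2 further rises, TXNIP and CDKN1A, were lost in 7 of those 8 fits each. TXNIP, an inhibitor of thioredoxin and of glucose uptake, had log2 levels of 11.22, 11.35, 10.69 and 11.01 in si-miR-20a cells and 10.89, 10.79, 9.59 and 9.63 in control cells, so its difference was 0.44 at 60 min and 1.24 at 120 min. CDKN1A, the CDK inhibitor p21, had 10.55, 10.68, 10.57 and 10.65 in si-miR-20a cells and 10.02, 10.13, 10.35 and 10.23 in control cells (0.43 ± 0.09, limma adjusted p = 0.0303). ATG16L1, an autophagy protein, and NAPEPLD, a phospholipase, completed the 6 rises with 0.47 ± 0.09 and 0.62 ± 0.15. The 5 falls were VEGFA (-0.59 ± 0.09), the acetyltransferase KAT2B (-0.58 ± 0.09), the inhibitory SMAD7 (-0.55 ± 0.09), the death promoter BCL2L11 (-0.53 ± 0.10) and the kinase MAP3K5 (-0.48 ± 0.09). Without control at 60 min replicate 1, VEGFA, KAT2B and SMAD7 no longer passed, and KAT2B did not pass without control at 60 min replicate 2 either. Long-studied members of the list such as E2F1 (0.34 ± 0.18), E2F3 (0.08 ± 0.08), RBL2 (0.05 ± 0.08), TGFBR2 (0.28 ± 0.08), CCND1 (0.42 ± 0.12) and RB1 (-0.02 ± 0.09) did not pass. Among 16 microRNA host and primary transcripts 1 fell, CTDSP2 (-0.50 ± 0.08), a call lost in 4 of the 8 fits without 1 array. Of 17 genes for microRNA processing and silencing 0 passed, with AGO2 at -0.03 ± 0.07 and DICER1 at -0.07 ± 0.10. Of all probe sets 2.82% fell and 2.74% rose.

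**Figure D3:**
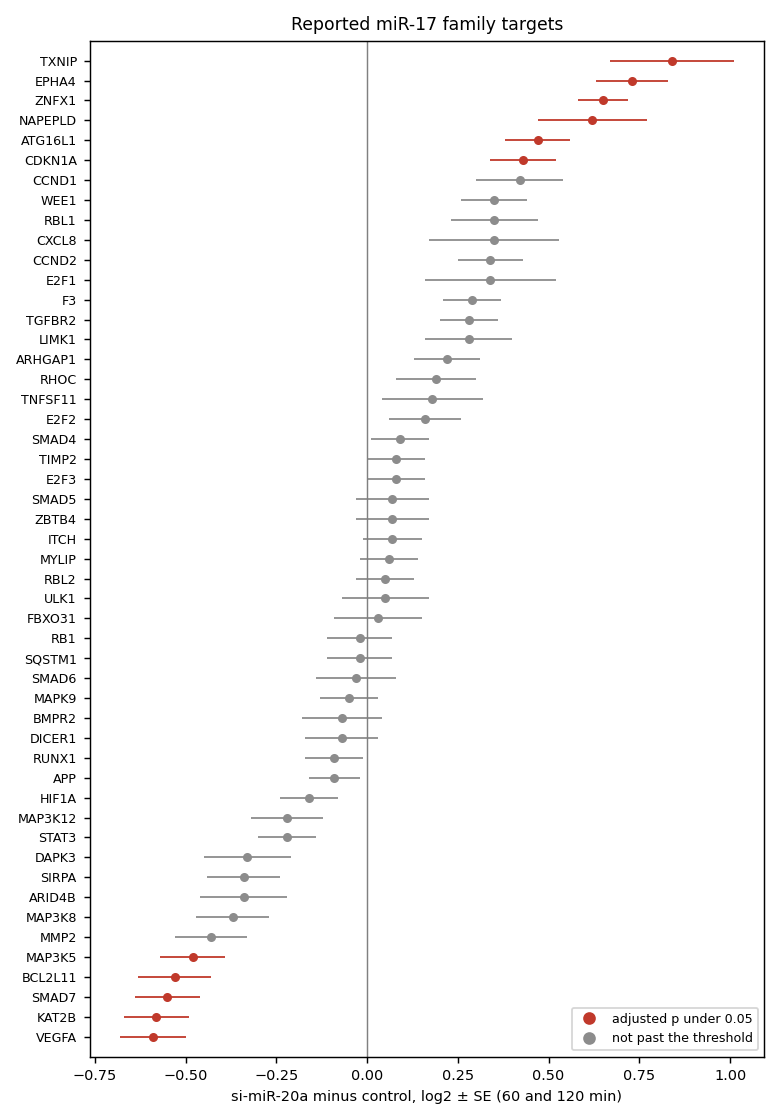
Difference si-miR-20a minus control on the log2 scale with its SE for the 50 measured genes of the miR-17 family target list, sorted by size, with those past the threshold in red. The 6 rises reach from CDKN1A at 0.43 to TXNIP at 0.84 and the 5 falls from MAP3K5 at -0.48 to VEGFA at -0.59, with 39 genes between them.

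At each late time alone, in a fit of 16 arrays that pooled the spread over the si-miR-20a and control groups of all 4 times, 664 probe sets (3.41%) were called at 60 min, 319 higher (1.64%) and 345 lower (1.77%). At 120 min 1135 (5.83%) were called, 565 higher (2.9%) and 570 lower (2.93%). These counts too rested on single arrays. At 60 min they were 262 and 186 without si-miR-20a replicate 1 or 2, and 147 and 123 without control replicate 1 or 2. At 120 min they were 1999 and 219 without si-miR-20a replicate 1 or 2, and 233 and 579 without control replicate 1 or 2. Tested as a difference between the effects at 120 and at 60 min, 1 probe set passed (0.00514%), that of CYP24A1, the enzyme that inactivates active vitamin D, while 1141 had an unadjusted p under 0.05. CYP24A1 had log2 levels of 5.26 and 5.02 at 60 min and 7.32 and 7.48 at 120 min in si-miR-20a cells, against 6.44 and 6.67 at 60 min and 6.58 and 6.36 at 120 min in control cells. It was thus lower than control in both arrays at 60 min (-1.42) and higher in both at 120 min (0.93), and the effect at 120 min minus that at 60 min was 2.35 (limma adjusted p = 0.00307). The average over both times, -0.24 ± 0.42, was not called and describes neither time. In si-miR-671 cells CYP24A1 was at 5.48 and 5.37 at 60 min and 4.75 and 4.80 at 120 min. The next smallest p upwards belonged to FGF5 (1.24), TXNIP (0.80) and PRDM1 (1.18), and the smallest downwards to TCN1 (-1.61), EBLN1 (-2.17) and DKK1 (-0.67), with adjusted p from 0.373 to 0.82.

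At 0 and 30 min, where other si-miR-20a and control arrays were used, 1635 probe sets (8.4%) were called, 613 higher (3.15%) and 1022 lower (5.25%). Tested as the late effect minus the early effect, 0 probe sets passed in limma (0.0%), with 910 at an unadjusted p under 0.05 and a lowest adjusted p of 0.174. The late and early effects stood side by side as follows. VNN2 differed by -2.13 late and -2.16 early, CFB by -1.43 and -1.47, CXCL1 by -1.26 and -1.14 and S100A9 by -1.61 and -1.56. SCEL differed by 2.06 late and 1.39 early, AOX1 by 1.81 and 1.11 and DPYSL3 by 1.34 and 0.82, and the late minus early differences of 0.67 ± 0.22, 0.70 ± 0.15 and 0.51 ± 0.16 did not pass.

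The counts by list come from fits of different form, 8 arrays with 5 residual degrees of freedom late and 16 arrays with 8 early, so they are given side by side without a comparison. Falls made up 2.82% of all probe sets late and 5.25% early. Defence genes had 17 falls late and 19 early, cytokine genes 7 and 18, and NF-kappaB genes 7 and 11. Rises made up 2.74% of all probe sets late and 3.15% early, and G1/S genes had 10 late and 5 early, with median differences of 0.32 and 0.07. CCNE2 differed by 0.83 late and 0.35 early and RFC3 by 0.74 and 0.26, neither called early, and their late minus early differences of 0.48 ± 0.19 and 0.48 ± 0.12 did not pass (adjusted p = 0.981 and 0.751). The smallest p among late minus early differences upwards belonged to PTGS2, the inducible cyclooxygenase (0.80 ± 0.12), the cytokine IL24 (0.98 ± 0.13) and the growth factor FGF5 (0.88 ± 0.13), each with an adjusted p of 0.174. The smallest downwards belonged to FGFR2 (-0.41 ± 0.08), MYOT (-1.0 ± 0.19) and ESR2 (-0.61 ± 0.13), with adjusted p from 0.442 to 0.668. IL24 had log2 levels of 7.58, 7.51, 8.96 and 9.18 in si-miR-20a cells and 7.41, 7.10, 8.21 and 8.22 in control cells. FGF5 had 7.44, 7.35, 8.92 and 9.08 in si-miR-20a cells and 7.22, 7.12, 7.64 and 7.43 in control cells, so its difference was 1.46 at 120 min and 0.22 at 60 min.

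**Figure D4:**
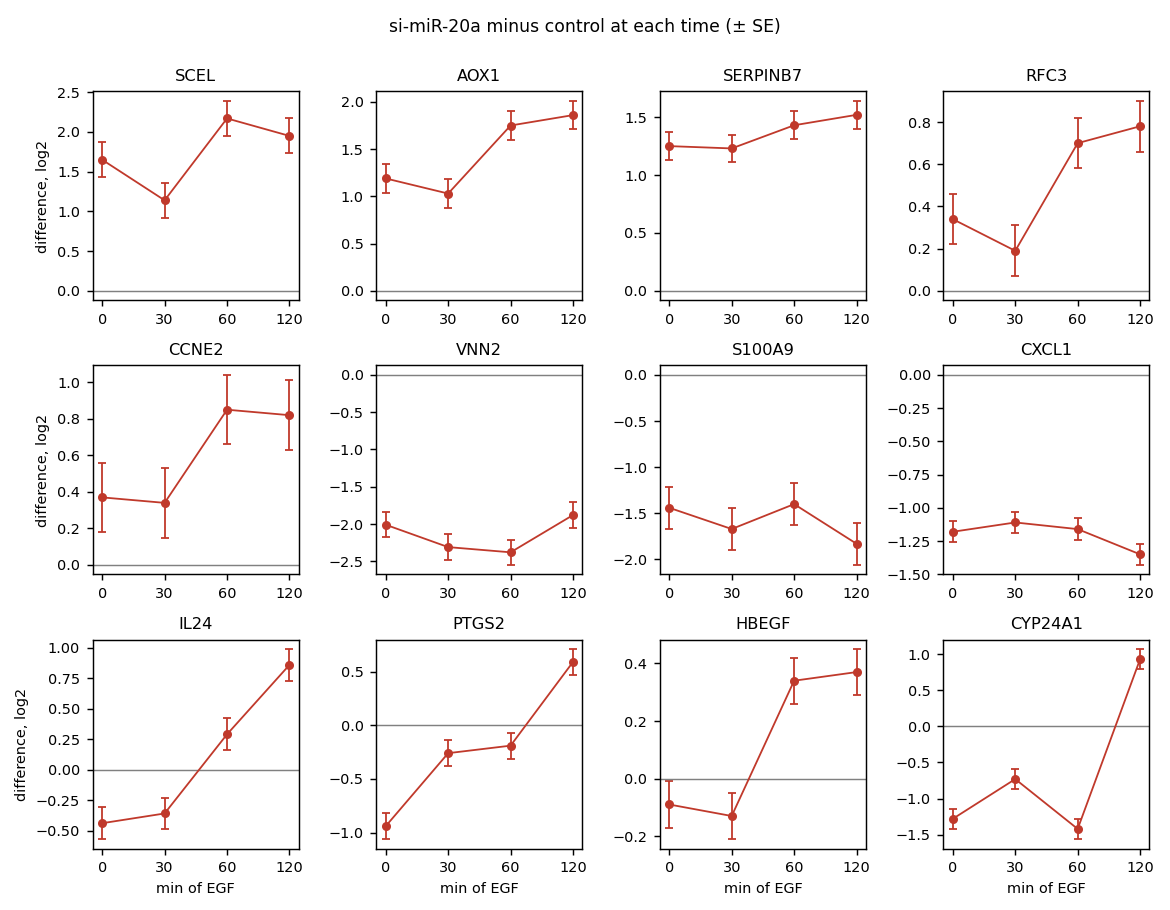
Difference si-miR-20a minus control on the log2 scale (points, SE as bars) at 0, 30, 60 and 120 min of EGF, evenly spaced, for 12 genes, from the fit of 16 arrays. VNN2, S100A9 and CXCL1 stay below 0 at all times, and CYP24A1 lies at -1.42 at 60 min and at 0.93 at 120 min.

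Against si-miR-671, the oligonucleotide with another target, 0 probe sets passed at 60 and 120 min (0.0%, limma with time as a block, n = 4 each), with 1253 at an unadjusted p under 0.05. The count was 219, 179 higher and 40 lower, when the spread was pooled over all 24 arrays. The differences between the transfections had an SD over probe sets of 0.296 at 60 min and 0.341 at 120 min, and those of the 2 times correlated at -0.46 over 19460 probe sets, which come from the same arrays and are not independent. For si-miR-20a minus control the corresponding values were 0.293, 0.308 and 0.39.

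The genes given here, some of them among the largest differences from control in si-miR-20a cells, lay on the same side of control in si-miR-671 cells. The 4 control arrays are shared. SCEL averaged 2.06 above control in si-miR-20a cells and 1.90 above it in si-miR-671 cells, and si-miR-20a minus si-miR-671 was 0.16, with a 95% interval of -0.15 to 0.47. VNN2 averaged -2.13 and -2.41 relative to control, and the difference between the transfections was 0.28 (-0.54 to 1.10). For S100A9 that difference was 0.07 (-0.42 to 0.55), for CXCL1 -0.04 (-0.24 to 0.16), for RFC3 0.02 (-0.24 to 0.27) and for CCNE2 -0.01 (-0.27 to 0.26). For AOX1 it was 0.79 (0.51 to 1.08), for CFB 0.36 (0.18 to 0.53) and for CDH11 0.49 (0.24 to 0.74), unadjusted intervals that did not include 0. Of the 39 G1/S and DNA replication genes, 34 estimates against si-miR-671 lay below 0 and 5 above, with a median of -0.12. Of the 35 mitosis genes 33 lay below 0 and 2 above, with a median of -0.19, beside 0.01 for all genes. None of the genes in this paragraph passed, which does not show that the transfections act alike.

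The 3 smallest p upwards belonged to PNLIPRP3 (0.78 ± 0.08), PTPN4 (0.80 ± 0.09) and NKIRAS1 (0.69 ± 0.08), each with an adjusted p of 0.138, which ZNFX1 of the miR-17 target list and IRF9 of the interferon list shared. ZNFX1 had log2 levels of 9.20, 9.25, 9.25 and 9.32 in si-miR-20a cells, against 8.47, 8.54, 8.53 and 8.74 in si-miR-671 cells, where the mean differed from control by -0.03. All 4 si-miR-20a arrays lay above all 4 si-miR-671 arrays (0.68 ± 0.08, 95% interval 0.50 to 0.87). NKIRAS1, an inhibitor of NF-kappaB signalling of the Ras type, had 8.59, 8.65, 8.57 and 8.76 in si-miR-20a cells, against 7.88, 7.92, 8.05 and 7.97 in si-miR-671 cells and 7.82, 7.80, 7.52 and 7.84 in control cells. The tyrosine phosphatase PTPN4 had 7.96, 7.88, 7.59 and 7.82 in si-miR-20a cells, against 7.08, 7.10, 6.84 and 7.03 in si-miR-671 cells and 7.42, 7.50, 7.09 and 6.95 in control cells. The 3 smallest downwards were ZNF570 (-0.55 ± 0.09), PADI3 (-0.53 ± 0.08) and NR4A1 (-0.54 ± 0.10), with adjusted p from 0.271 to 0.347, and none of these passed against control.

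**Figure D5:**
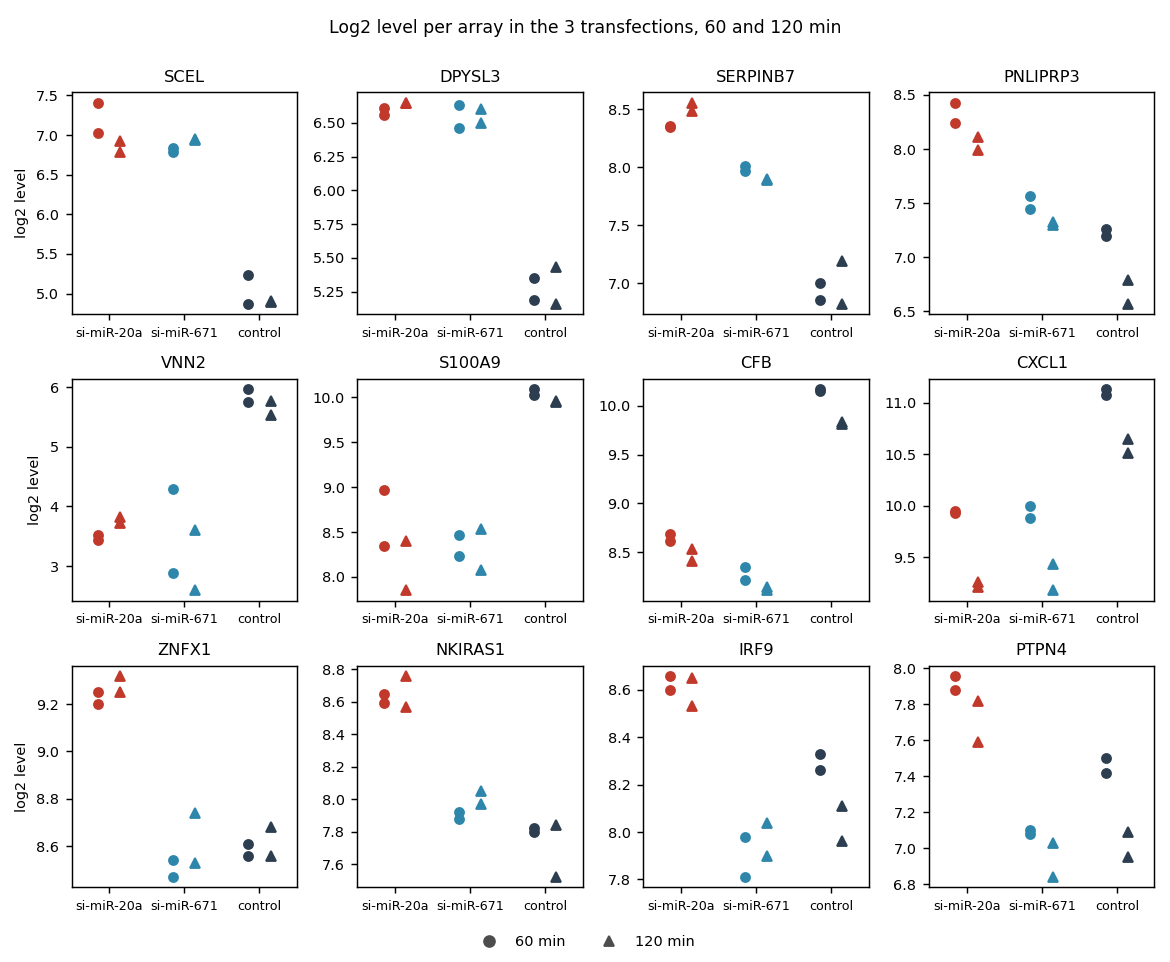
Log2 level of each array at 60 min (circles) and 120 min (triangles) in si-miR-20a, si-miR-671 and control cells for 12 genes. In the upper and middle rows si-miR-671 lies on the side of si-miR-20a for SCEL, VNN2, S100A9, CFB and CXCL1, while in the lower row ZNFX1, NKIRAS1, IRF9 and PTPN4 have their highest means in si-miR-20a cells.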

How the data were processed

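The authors deposited log2 values, 1 per probe set, for 24 arrays, made with Affymetrix Expression Console per the submitters' processing notes, which give no version. How signals were summarised and normalized is not given in the sources used here, and base 2 was taken from the range of the values. Array medians ran from 6.56 to 6.57, so no further normalization was applied. Of 33297 probe sets, 19460 with exactly 1 symbol, covering 18417 genes, were tested, 1754 had several symbols and 12083 had none listed. The number of arrays limits the precision.

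Differences were tested with limma 3.58.1 in R 4.3.3 (lmFit, eBayes). The comparison over 60 and 120 min, and that with si-miR-671, used 8 arrays with time as a block. Contrasts between times used group means over 16 arrays. Errors are model standard errors. The call was a Benjamini-Hochberg adjusted p under 0.05 over all 19460 probe sets. Tables were made with Python 3.11.15, pandas 2.3.3, numpy 2.4.6 and matplotlib 3.10.9. The fits were tested on simulated data.

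Where a gene had several probe sets, the one of highest mean stands for it. Chosen for naming were the 12 largest rises and falls whose groups did not overlap within a time, the 3 largest called members of each list in each direction, and MIR17HG. For the other comparisons they were up to 5 largest past the threshold in each direction, or up to 3 of smallest p where too few passed. Not all genes so chosen are printed. Members and lists were chosen with earlier results of these data known. Further called list members, such as LTF, SAA1, C1S, C3, IL6, SOD2, NFKBIZ, CDC6 and PLAU, were named after their values were seen. Alternatives were other sets of probe sets, quantile normalization, median centring, all 24 arrays, a replicate block, eBayes with trend and robust, and leaving out each array. Replicate numbers were not used to pair the arrays in the main fits. The differences between replicates of the 4 late groups correlated at -0.19 to 0.19, which does not show that pairing was absent.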

Additional observations from a re-analysis of the deposited data

Results flagged for a closer look

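CYP24A1 drew attention because the test of a difference between the effects at the 2 late times passed for it and for no other gene. The effect at 120 min minus the effect at 60 min was 2.35 on the log2 scale (limma adjusted p = 0.00307), with both si-miR-20a arrays below both control arrays at 60 min and above them at 120 min. Each of these values rests on 2 arrays per group.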

How the results depend on the processing

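The direction of all 107 called genes chosen for naming held, in the comparison over 60 and 120 min, in every setting that tested them. For fits without 1 array or at 1 time this was fixed in advance, since the groups of each called gene did not overlap within either time. The count of 1081 was 1080 after quantile normalization and 1081 after median centring. It was 528 with all probe sets tested, 1951 with those above the median level, 3249 with the spread of all 24 arrays, 2036 with trend and robust eBayes, 44 from the 120 min arrays alone, 0 from the 60 min arrays alone and 387 with a 1.5-fold limit. Without 1 array it ran from 264 to 870. Quantile normalization and median centring cost 2 and 1 of the 107 calls, the 24-array fit 0, testing all probe sets 34, the 120 min arrays alone 84 and the 60 min arrays alone all 107. The split between rises and falls moved from 533 and 548 to 332 and 538 without si-miR-20a at 60 min replicate 1, and to 13 and 31 from the 120 min arrays alone, which are fits with fewer arrays.

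With the replicate number as a block the count was 808, and 13 of the 107 calls were lost. The block gave 852 at 60 min, 1518 at 120 min, 1 between the late times, and 0 both for late minus early and against si-miR-671. At 60 min the count of 664 was 1034 above the median level, 1205 with 24 arrays and 123 to 262 without 1 array. At 120 min the count of 1135 was 1899, 1958 and 219 to 1999 in the same settings. Late minus early gave 1 with 24 arrays. Between the late times the count was 0 above the median level and 1 to 2 without 1 array. Against si-miR-671 it was 9 above the median level, 219 with 24 arrays, 11 with trend and robust eBayes and 0 without any 1 array. The cause of these shifts was not tested.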
